A study of Mus musculus with 4 samples.

Results

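The Klhl (Kelch-like) genes encode proteins with a BTB domain, a BACK domain and Kelch repeats, and binding of their mRNAs by IGF2BP3 was measured in mouse testes. Members were the protein-coding genes of GENCODE M21 (mm10) whose symbol is Klhl followed by a number, 36 of 21951 genes. A cluster of reads was given to a gene when its centre lay within the gene span on the same strand, which placed 437 of 337234 clusters of replicate 1 and 267 of 216354 clusters of replicate 2 in Klhl genes. At least 1 cluster was found in 30 members, and the other 6 had no cluster in either replicate.

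Most Klhl proteins bind the scaffold CUL3 through the BTB domain and a substrate through the Kelch repeats, so that the substrate is ubiquitinated. The family is spread over many tissues, and its best known member in the male germ line is Klhl10, a spermatid protein needed for male fertility in mice. IGF2BP3 is a cytoplasmic RNA-binding protein with KH domains that is also described as a reader of m6A-modified mRNA.

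The eCLIP-seq data came from wild type C57BL/6 mice (C57BL/6J in the protocol) aged 8 weeks, whose testes hold germ cells and somatic cells. The cells were dispersed mechanically and crosslinked with ultraviolet light. In each of 2 replicates, RNA bound by an Abcam antibody against IGF2BP3 (IP) was set against a small share of the same lysate kept without antibody (SMInput), 4 libraries in all. The design text also speaks of IgG and of a larger number of replicates, but such libraries were not analysed here. The design text calls the replicates biological, and whether they came from separate animals is not given in the labels. Usable reads, recovered from the deposited values, were 5133438 for IP and 8706391 for SMInput in replicate 1, and 4637612 for IP and 16696122 for SMInput in replicate 2.

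The deposited tables give for each cluster a log2(fold change) of IP over SMInput, each scaled to its library, and a −log10(P). A cluster with both values at 2 or more is called a significant peak. Bound RNA from a whole testis depends on the number of cells of each type as well as on RNA and binding per cell, and these cannot be told apart. The tissue label was checked with marker mRNAs. Clusters were found in both replicates for 6 of 6 spermatid markers, 5 of 5 spermatocyte markers, 5 of 5 spermatogonium markers, 4 of 5 Sertoli cell markers and 5 of 5 Leydig cell markers. The deepest SMInput clusters of the spermatid list, in Prm2, held 426 reads in replicate 1 and 665 in replicate 2. Those of the spermatocyte list, in Hspa2, held 459 and 1795, and those of the spermatogonium list, in Dmrt1, 12 and 21. Somatic markers were deep too, with 319 and 521 reads in Insl3 (Leydig) and 218 and 393 in Clu (Sertoli). Of 4 skeletal muscle markers, only Myh1 had clusters, 2 in replicate 1 and 0 in replicate 2, while Acta1, Ckm and Tnnt3 had 0 in both. All 3 blood markers had clusters in replicate 1 and 1 of them in replicate 2, Alas2, whose deepest SMInput clusters held 3 and 11 reads. The clusters of Hba-a1 and Hbb-bs had a −log10(P) of 0, and their reads could not be recovered.

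Significant peaks made up 24 of the 437 Klhl clusters of replicate 1 (5.49%), beside 4.91% of the clusters in all protein-coding genes and 4.92% of all clusters. In replicate 2 they made up 38 of 267 (14.2%), beside 13.1% and 13.2%. A −log10(P) of at least 2 at any positive fold change was reached by 29 Klhl clusters in replicate 1 (6.64%, beside 7.44% of the clusters in protein-coding genes) and 43 in replicate 2 (16.1%, beside 18.8%). By gene, 12 of the 29 members with a cluster in replicate 1 had a significant peak (41.4%, beside 40.8% of such genes). For replicate 2 the numbers were 13 of 26 (50%, beside 62.8%). Counted over all genes with or without a cluster, a significant peak was found in 12 of 36 members in replicate 1, beside 26.1% of genes, and 13 of 36 in replicate 2, beside 36.8%. At these thresholds the share of Klhl clusters called thus stood close to the background. A significant peak was present in both replicates in 9 of the 25 members with clusters in both (36%, beside 39.1% of such genes and 21.9% of all genes), and these were Klhl7, Klhl9, Klhl11, Klhl12, Klhl20, Klhl21, Klhl23, Klhl24 and Klhl25. In 6 of them, significant peaks of the replicates shared at least 1 base (24% of 25, beside 16.6%), which is 66.7% of the 9, beside 42.5%. Of all protein-coding genes, with or without a cluster, 9.33% had overlapping significant peaks, and 6 of the 36 members did. With an adjusted P under 0.05 the 9 members fell to 4 and the 6 with shared sites to 3, and with both thresholds at 3 both fell to 0. For these gene counts no share of all protein-coding genes under the same settings is given. The falls are thus not read as particular to the family. With the adjusted P, 9 of 437 Klhl clusters passed in replicate 1, beside 3.24% of those in protein-coding genes. In replicate 2, 31 of 267 passed, beside 10.4%. With both thresholds at 3, 4 of 437 passed in replicate 1, beside 1.18%, and 3 of 267 in replicate 2, beside 2.4%. The Klhl share was above the background in replicate 2 with the adjusted P and below it otherwise.

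**Figure D1:**
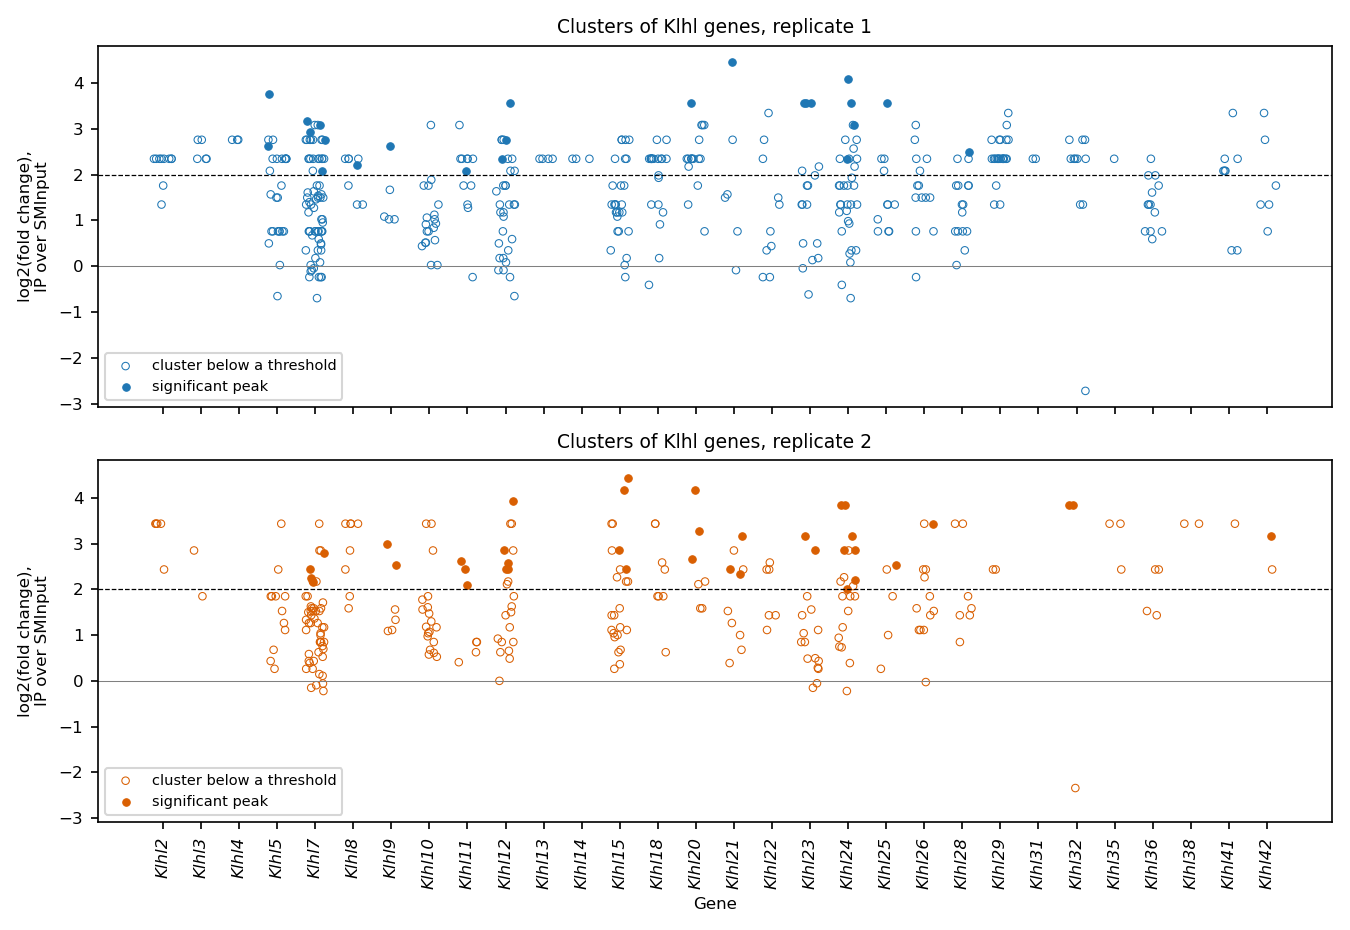
Each point is a cluster of the gene on the horizontal axis, and the vertical axis gives its log2(fold change) of IP over SMInput, with replicate 1 above and replicate 2 below. Filled points are the 24 and 38 significant peaks, and the dashed line marks a log2(fold change) of 2; many open points lie above the line because their −log10(P) was below 2.

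Few reads stood behind these clusters. Reads could not be recovered for 40 of the 437 Klhl clusters of replicate 1 and 11 of the 267 of replicate 2, none of them significant, and the read numbers here leave these out. The median Klhl cluster held 4 IP reads in either replicate, and the most IP reads in a cluster were 30 and 29 (replicates 1 and 2). A cluster with 1 SMInput read passed both thresholds from 7 IP reads upwards in replicate 1 and from 4 upwards in replicate 2, and 169 and 67 Klhl clusters had a log2(fold change) of 2 or more without reaching a −log10(P) of 2. Significant Klhl peaks had a median of 10.5 IP reads (replicate 1) and 6.5 (replicate 2), beside 13 and 8 for all protein-coding genes. Among Klhl clusters of 10 IP reads or more, 15 of 41 were significant in replicate 1 (36.6%, beside 24.9%) and 10 of 30 in replicate 2 (33.3%, beside 27.5%). Exact 95% binomial intervals of the fold change cover counting error only and come from the same reads that selected the peaks. Their lower bound reached a log2 of 2 for 0 of 24 significant Klhl peaks in replicate 1 and 1 of 38 in replicate 2. The part of read depth in missing peaks was not tested.

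Klhl10, the spermatid member, lies at chr11:100441917-100457022 on the plus strand and had 19 clusters in each replicate, none of which passed both thresholds. Its annotated 3′UTR has 76 bases, the shortest among the members with a cluster, and held no cluster. In replicate 1, 16 clusters lay in the coding sequence (CDS), 1 in the 5′UTR and 2 in introns, and in replicate 2, 14 lay in the CDS and 5 in introns. The clusters had a median log2(fold change) of 0.91 in replicate 1, from 0.03 to 3.08, and of 1.18 in replicate 2, from 0.53 to 3.43. All clusters of Klhl10 above a log2(fold change) of 2 were intronic, 1 in replicate 1 and 3 in replicate 2, with at most 5 IP reads each.

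The Klhl10 clusters with the lowest P lay at the same place in both replicates, in the CDS upstream of the stop codon. In replicate 1, chr11:100456637-100456778 held 24 IP reads and 11 SMInput reads, a log2(fold change) of 1.89 (95% interval 0.80 to 3.06) and a −log10(P) of 3.63. In replicate 2, chr11:100456664-100456759 held 19 IP reads, 20 SMInput reads and a log2(fold change) of 1.77 (0.79 to 2.76). Both fold changes were below the threshold of 2, and the intervals overlapped. A second overlapping pair in the CDS had 20 IP reads and 10 SMInput reads with a log2(fold change) of 1.76 at chr11:100447363-100447443 in replicate 1, and 28 and 41 reads with 1.30 at chr11:100447222-100447436 in replicate 2. Another CDS cluster with a −log10(P) above 2, chr11:100447666-100447731 in replicate 2, had a log2(fold change) of 1.61 with 11 IP reads and 13 SMInput reads. With the log2(fold change) threshold lowered to 1, Klhl10 had significant peaks in both replicates that overlapped.

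**Figure D2:**
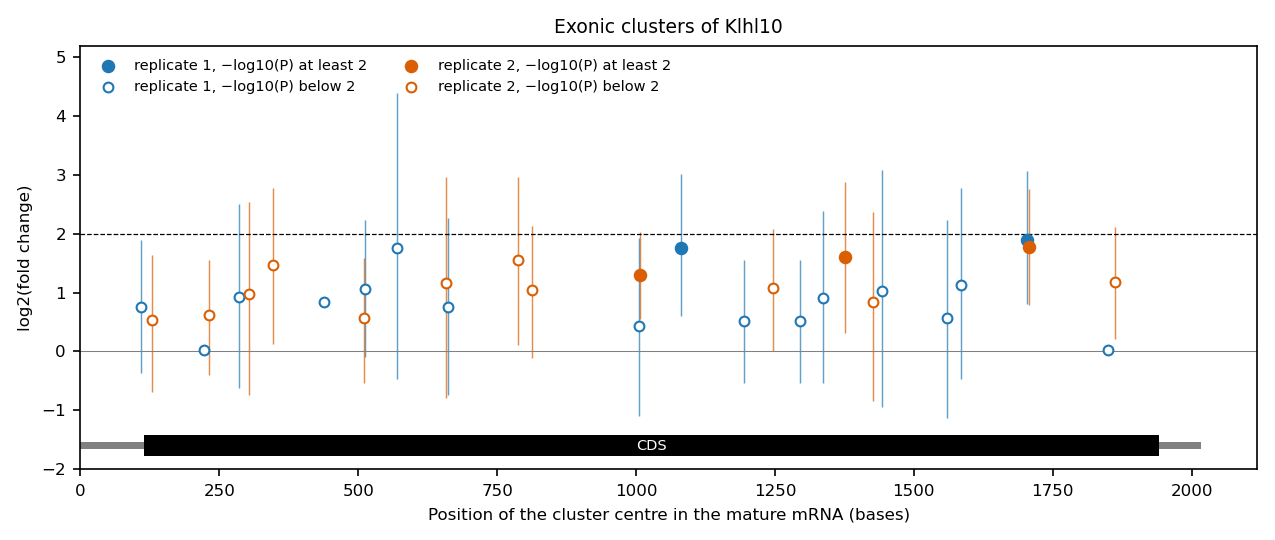
The horizontal axis is the position of each exonic Klhl10 cluster in the mature mRNA, in bases, with the CDS as a black bar, and the vertical axis is the log2(fold change). Filled points had a −log10(P) of at least 2, and bars are 95% binomial intervals, drawn for all but 3 replicate 1 clusters whose reads could not be recovered; all exonic clusters lie below the dashed line at 2.

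Klhl7, Klhl12, Klhl15, Klhl20, Klhl24 and Klhl25, adaptors with varied roles in traffic, signalling, protein turnover and translation, held 14 of 24 significant Klhl peaks in replicate 1 and 24 of 38 in replicate 2. They also held 192 of the 437 and 131 of the 267 clusters. Klhl7 and Klhl24 had 9 of the 14 peaks and 11 of the 24. Klhl7, an adaptor mutated in inherited retinal degeneration, had the most clusters of the family, 71 in replicate 1 and 52 in replicate 2, of which 53 and 39 were intronic. Significant peaks of Klhl7 numbered 5 in replicate 1, the most of any member there, and 4 in replicate 2. The shared site lay in the 3′UTR, about midway between the stop codon and the transcript end. There, 30 IP reads and 12 SMInput reads were found in replicate 1 (chr5:24160267-24160316) and 29 and 22 in replicate 2 (chr5:24160258-24160316). The log2(fold change) was 2.08 and 2.25 (mean 2.17 ± 0.11, SD, n = 2), and the −log10(P) was 5.06 and 8.47. This was the deepest of the shared Klhl sites in both replicates.

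Beside that site, the Klhl7 3′UTR held peaks that passed in 1 replicate only. In replicate 1 they were chr5:24160172-24160203, with a log2(fold change) of 3.08, and chr5:24160692-24160733, with 3.18, and no cluster of replicate 2 lay on either. In replicate 2, chr5:24160355-24160438 had 23 IP reads, 12 SMInput reads and a −log10(P) of 8.98, the highest of any Klhl cluster in the data, with a log2(fold change) of 2.79. The overlapping cluster of replicate 1 had a log2(fold change) of 1.46 and a −log10(P) of 1.48. The replicate 2 peak at chr5:24160565-24160631, at 2.17, also met a replicate 1 cluster short of the thresholds, at 1.40. Intronic significant peaks of Klhl7 numbered 2 in replicate 1 and 1 in replicate 2 and met no cluster of the other replicate.

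Klhl12, whose product helps CUL3 to build the large COPII coats that carry procollagen and also targets Dishevelled, had 3 and 5 significant peaks (replicates 1 and 2). Its shared site lay towards the end of the 3′UTR, 251 bases from the transcript end in replicate 1. Reads numbered 12 IP and 3 SMInput at chr1:134490743-134490790 in replicate 1, and 17 IP and 4 SMInput at chr1:134490744-134490795 in replicate 2. The log2(fold change) was 2.76 and 3.94 (mean 3.35 ± 0.83, SD, n = 2). The replicate 2 peak was the only significant Klhl peak with a lower 95% bound above 2, at 2.32. Upstream in the same 3′UTR, a peak of replicate 1 at 2.35 and peaks of replicate 2 at 2.59 and 2.85 did not overlap each other, and the last of these met a replicate 1 cluster at 1.76 that was short of the thresholds. Intronic significant peaks of Klhl12, 1 in replicate 1 (3.57) and 2 in replicate 2 (2.43 each), met no cluster of the other replicate.

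Klhl20, an adaptor for the degradation of DAPK1 and PML, had the shared site with the largest smaller log2(fold change) of the family. At chr1:161089615-161089659 on the minus strand, replicate 1 had 7 IP reads and 1 SMInput read, a log2(fold change) of 3.57. At chr1:161089624-161089665, replicate 2 had 8 IP reads and 3 SMInput reads, a log2(fold change) of 3.26 (mean of both 3.42 ± 0.22, SD, n = 2). The 95% intervals, 0.61 to 9.06 and 1.20 to 5.81, were wide because the site rests on so few reads. It was lost both with an adjusted P under 0.05 and with a minimum of 10 IP reads. Both other significant peaks of Klhl20, in the 3′UTR of replicate 2, met no cluster of replicate 1.

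Klhl24, an adaptor whose gain-of-function mutations cause loss of keratin 14 in skin, had 4 significant peaks among 34 clusters in replicate 1. In replicate 2 it had 7 among 21, the most of any member there, but none of these overlapped one of replicate 1. Its 3′UTR of 6115 bases is the longest of the family. Replicate 1 peaks lay close after the stop codon, at chr16:20123184-20123234 with a log2(fold change) of 3.08 and at chr16:20123280-20123323 with 3.57. The 4 replicate 2 peaks of the 3′UTR had their centres 1007 bases or more after the stop codon, with log2(fold change) values from 2.00 to 3.85. Of these 4, 2 met replicate 1 clusters short of the thresholds, at 1.21 and 2.18. The Klhl24 peak with the largest value, 4.08 in replicate 1 from 10 IP reads and 1 SMInput read, was intronic.

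Klhl25, an adaptor for the translational repressor 4E-BP1 and for ATP citrate lyase, had 1 significant 3′UTR peak in each replicate, at different positions. The peak of replicate 1, chr7:75873726-75873823, had 7 IP reads and 1 SMInput read (log2(fold change) 3.57), and that of replicate 2, chr7:75873377-75873446, had 8 and 5 reads (2.53). Klhl15, an adaptor for a PP2A regulatory subunit and for the repair factor CtIP, had 27 clusters and 0 significant peaks in replicate 1 but 4 significant peaks among 24 clusters in replicate 2. The intronic peak at chrX:94242675-94242770 had the largest log2(fold change) of a significant Klhl peak in replicate 2, 4.43, from 6 IP reads and 1 SMInput read. None of the 4 places had a cluster in replicate 1.

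Among the 6 members linked to cell division and microtubules, Klhl9 and Klhl21 had shared sites, Klhl42 had a peak in replicate 2, and Klhl13, Klhl18 and Klhl22 had clusters only. Klhl21, which with Klhl9 and Klhl13 directs Aurora B during mitosis, held the largest log2(fold change) of a significant Klhl peak in replicate 1. The peak chr4:152017049-152017155 had 13 IP reads and 1 SMInput read, a log2(fold change) of 4.46 and a −log10(P) of 4.64. In replicate 2, chr4:152017035-152017083 had 9 IP reads and 6 SMInput reads, a log2(fold change) of 2.43 and a −log10(P) of 2.83. The replicates differed most at this site (mean 3.45 ± 1.44, SD, n = 2), and the 95% intervals of 1.73 to 9.87 and 0.78 to 4.20 overlapped. The site was lost with a minimum of 10 IP reads, since the replicate 2 peak had 9. Replicate 2 also had a Klhl21 CDS peak at 3.17, with 5 IP reads and 2 SMInput reads, which met no cluster of replicate 1. A further 3′UTR peak of replicate 2, at 2.33 from 7 and 5 reads, met a replicate 1 cluster at 0.76.

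Klhl9, whose transcript of 4174 bases has no intron, had its shared site in the 3′UTR on the minus strand. Replicate 1 had 11 IP reads and 3 SMInput reads at chr4:88719047-88719112, and replicate 2 had 11 and 5 at chr4:88719074-88719121. The log2(fold change) was 2.64 and 2.99 (mean 2.81 ± 0.25, SD, n = 2). The shared site was lost when an adjusted P under 0.05 was asked for. A second 3′UTR peak of Klhl9 in replicate 2, at 2.53, met no cluster of replicate 1. Klhl42, an adaptor for the microtubule-severing protein katanin, had 1 significant peak in replicate 2, chr6:147108186-147108288, from 5 IP reads and 2 SMInput reads. Klhl18, an adaptor for Aurora A, had 22 and 8 clusters, Klhl22, an adaptor for PLK1, had 10 and 6, and Klhl13 had 4 in replicate 1 and 0 in replicate 2. Their largest log2(fold change) values were between 2.35 and 3.43, each from a cluster whose −log10(P) stayed below 2.

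Klhl2 and Klhl3, the adaptors for WNK kinases that set salt transport in the kidney, had 10 and 5 clusters in replicate 1 and 5 and 2 in replicate 2, with at most 9 IP reads and no significant peak. All Klhl2 clusters were intronic. Of the members known from striated muscle, Klhl40 had no cluster, Klhl31 had 2 in replicate 1 and Klhl41 had 8 and 1, again without a significant peak.

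Klhl11, a known autoantigen in men with testicular germ cell tumours, has a 3′UTR of 250 bases, the shortest among the 12 members with a significant 3′UTR peak. Its shared site lay just after the stop codon, on the minus strand. At chr11:100462787-100462874 replicate 1 had 15 IP reads and 6 SMInput reads, and at chr11:100462754-100462843 replicate 2 had 13 and 11. The log2(fold change) was 2.08 and 2.09, the closest pair of the family and both near the threshold. With 1 read added to both libraries, the replicate 1 peak fell short and the shared site was lost, as it was with an adjusted P under 0.05. In replicate 2 a second 3′UTR peak, chr11:100462630-100462698, had 24 IP reads, 14 SMInput reads and a −log10(P) of 8.69, at a log2(fold change) of 2.63. The replicate 1 cluster over it had a log2(fold change) of 1.76 and a −log10(P) of 2.01, so it missed the fold change threshold alone. A CDS peak in replicate 2 at 2.43 met no cluster of replicate 1.

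**Figure D3:**
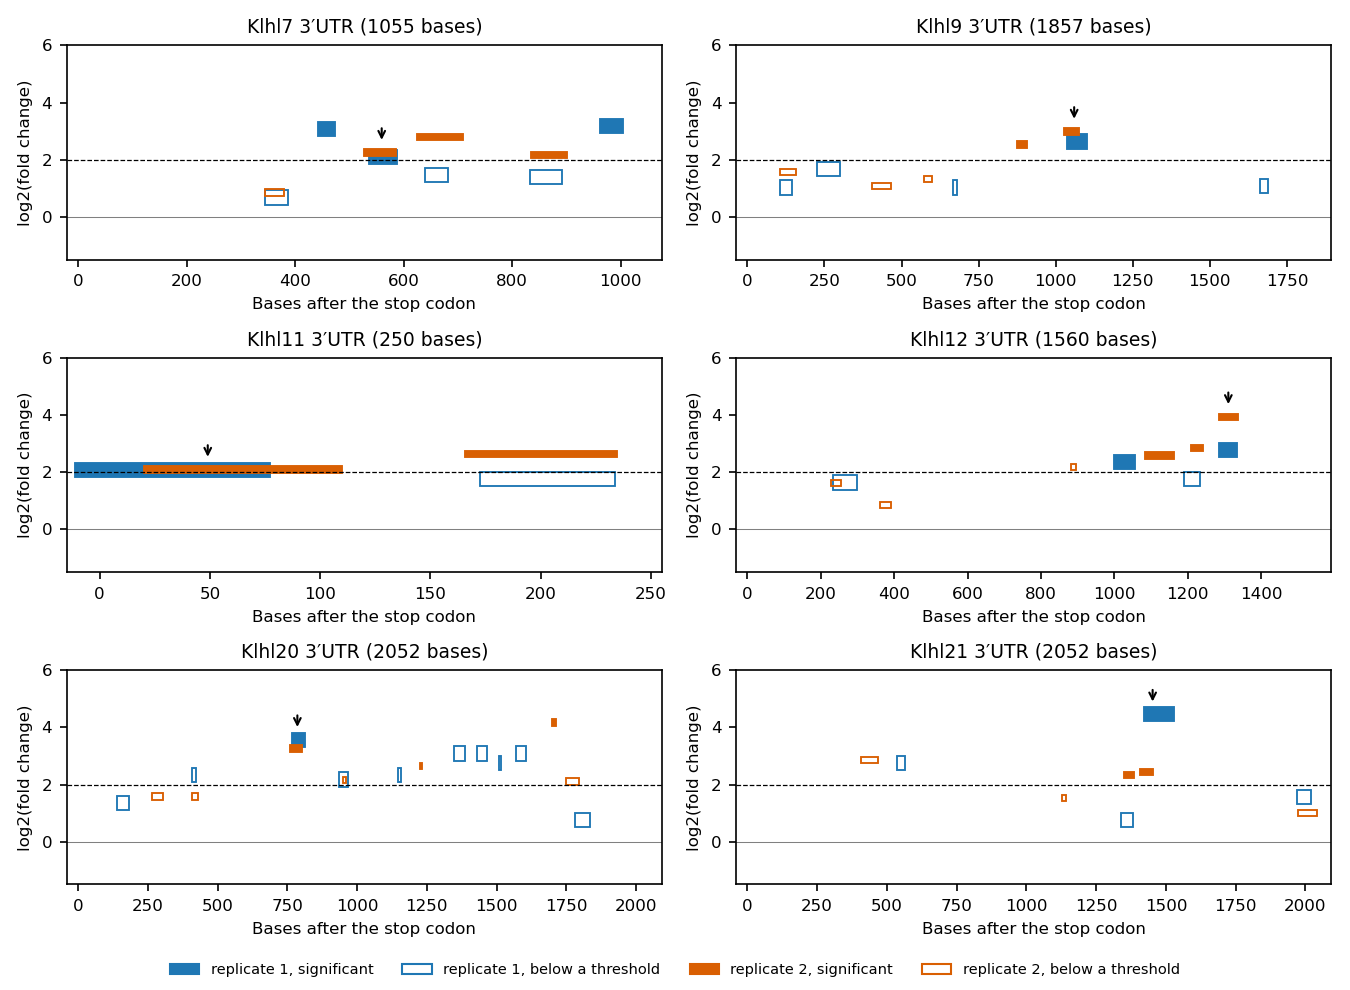
Each panel is the 3′UTR of a gene with overlapping significant peaks, with bases after the stop codon on the horizontal axis and log2(fold change) on the vertical axis; boxes span the clusters, filled where significant. Arrows mark the 6 shared sites, and the dashed line marks 2.

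The remaining members have fewer known roles. Klhl23 had 3 significant peaks in replicate 1, 1 in the CDS and 2 touching ones in an intron, and 2 intronic peaks in replicate 2, and none of them overlapped. In replicate 1 alone, Klhl5 had 2 significant peaks (log2(fold change) 2.64 and 3.76), Klhl8 had 1 (2.22) and Klhl28 had 1 (2.50). In replicate 2 alone, Klhl26 had 1 (3.43) and Klhl32 had 2 touching peaks (both 3.85), all intronic. The Klhl5 CDS peak was the only one of these from replicate 1 that met a cluster of the other replicate, whose log2(fold change) was 0.43, and among those from replicate 2 only the Klhl26 peak did, with 2.35. Klhl4, Klhl14, Klhl29, Klhl35, Klhl36 and Klhl38 had clusters without a significant peak, 3, 3, 24, 1, 13 and 0 in replicate 1 and 0, 0, 2, 3, 4 and 2 in replicate 2. No cluster was found in Klhl1, which is known from neurons, in Klhl6, which acts in B cells, or in Klhl30, Klhl33, Klhl34 and Klhl40.

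Across the family, significant peaks lay mostly in 3′UTRs. Of 24 peaks in replicate 1, 14 lay in a 3′UTR, 3 in the CDS and 7 in introns, a 3′UTR share of 58.3%, beside 44.8% for all protein-coding genes. The CDS share was 12.5%, beside 29.6%, and the intron share 29.2%, beside 24.9%. Of 38 peaks in replicate 2, 22 lay in a 3′UTR, 1 in a 5′UTR, 2 in the CDS and 13 in introns, a share of 57.9%, beside 37.9%. There the CDS share was 5.26%, beside 21.3%, and the intron share 34.2%, beside 40.2%. With 10 IP reads or more the 3′UTR share was 66.7% in replicate 1 and 90% of the 10 peaks left in replicate 2. With an adjusted P under 0.05 it was 77.8% of the 9 peaks left in replicate 1 and 67.7% in replicate 2. No share over all protein-coding genes is given under these filters. Peaks of the same mRNA are not independent, and the difference from all protein-coding genes was not tested. Clusters in 3′UTRs were also more common in Klhl genes before any threshold, 17.2% beside 11.1% of all in replicate 1 and 22.8% beside 14.2% in replicate 2. Given a 3′UTR cluster, the share that was significant was near the background, 18.7% beside 19.4% in replicate 1 and 36.1% beside 34.5% in replicate 2. The median annotated 3′UTR of the members has 1509 bases, against 729 for protein-coding genes. Within the family, it has 1708.5 bases in the 12 members with a significant 3′UTR peak. In the 18 with a cluster but no such peak it has 1731. The part of 3′UTR length in these shares was not tested. For CDS clusters the significant share was 3.26% beside 5.29% in replicate 1 and 3.17% beside 7.99% in replicate 2. For intron clusters it was 2.67% beside 2.05% in replicate 1 and 9.63% beside 10.9% in replicate 2.

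Within 3′UTRs, the median significant Klhl peak was 842 bases after the stop codon in replicate 1 and 1051 in replicate 2, beside 637 and 652 for all protein-coding genes. These distances also depend on 3′UTR length. Scaled to that length, the medians were 61.7% and 59.9% along the 3′UTR, beside 42.4% and 42.6%. To the transcript end they were 512.5 and 685 bases, beside 885 and 923. None of these differences was tested. A distance of at most 300 bases to the transcript end was found for 5 of 14 peaks in replicate 1 (35.7%, beside 20.1%) and 4 of the 21 replicate 2 peaks that lay in the transcript used (19%, beside 20.4%). Peaks of which at least 50% of the bases are soft-masked as repeats numbered 5 of 14 3′UTR peaks in replicate 1 (beside 9.18% of all) and 5 of 22 in replicate 2 (beside 11.9%). Among intronic peaks these were 5 of 7 in replicate 1 and 6 of 13 in replicate 2, beside 24.4% and 29.8%. Reads in repeats can be harder to place, and the part of this in the peaks was not tested.

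The 30 bases around the centre of each shared site are shown because these sites are the places in Klhl mRNAs called in both replicates. They are read 5′ to 3′ on the strand of the mRNA from GRCm38, all lie in 3′UTRs, and capitals mark GGAC, the core of the m6A consensus.
Klhl20, chr1:161089627-161089656: cttcataacagtcattttgctgctgttatg
Klhl12, chr1:134490753-134490782: ggctacactttccttttgctctggaatccc
Klhl9, chr4:88719079-88719108: tttggtgctgaggtagctggtaagcatcct
Klhl21, chr4:152017052-152017081: gtgtgtgtgtgtgtgtgtgtgtgttcagta
Klhl11, chr11:100462801-100462830: cctgttctgtgaggcggggatgcctGGACt
Klhl7, chr5:24160277-24160306: tgGGACttaactgtacccagttactcatga
The Klhl21 site is a GT repeat, and its peak was soft-masked over 33.6% of its length in replicate 1 and 100% in replicate 2. Both Klhl20 peaks were soft-masked over 100%. GGAC stood in the 100 bases around the centre of 3 of the 6 sites, those of Klhl7, Klhl11 and Klhl21. In 100-base windows at the significant 3′UTR peaks, on the mRNA strand alone, GGAC was found in 5 of 14 Klhl peaks in replicate 1 (35.7%, beside 25.1% of all 3′UTR peaks) and 6 of 22 in replicate 2 (27.3%, beside 23.4%). Among the other 3′UTR clusters of the family GGAC was found in 21.3% and 23.1%. GAACA was found at 0 of 14 and 2 of 22 Klhl peaks, beside 8.29% and 7.69% of all and 9.84% and 12.8% of the other Klhl 3′UTR clusters. AAACC was found at 0 of 14 and 0 of 22, beside 8.76% and 8.42% of all and 11.5% and 2.56% of the other Klhl clusters. At these numbers no difference from other mRNAs could be read from the motifs, and a match is only a match of letters.

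The replicates agreed at some places and not at others. Among 85 overlapping pairs of Klhl clusters, which share libraries, the log2(fold change) values had a Pearson's r of 0.674 across clusters, beside 0.638 for 91053 pairs in all protein-coding genes. Spearman's rho was 0.575, beside 0.597, so the pairs of the family agreed about as well as others. For the 20 Klhl pairs with at least 10 IP reads in both, r was 0.784, beside 0.735 for 29008 such pairs. Of the significant Klhl peaks of replicate 1, 6 of 24 overlapped one of replicate 2 (25%, beside 32.9% of all), 1 met a cluster short of the thresholds and 17 met no cluster. Of those of replicate 2, 6 of 38 overlapped one of replicate 1 (15.8%, beside 18.4%), 8 met clusters short of the thresholds and 24 met no cluster. The 8 had log2(fold change) values from 0.76 to 2.35 in replicate 1, with a median of 1.61. For peaks that met no cluster, no share over all protein-coding genes is given here. All 20 intronic significant peaks lacked a significant partner, and at 1 of them a cluster of the other replicate was present. No such share of the intronic peaks of all protein-coding genes is given here, so the count is not read as particular to the family. At the 6 shared sites the 95% intervals of the replicates overlapped, and the log2(fold change) was higher in replicate 1 at 2 sites and in replicate 2 at 4.

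Other genes of the CUL3 ligase system were taken from a list of 57. A significant peak in both replicates was found in 27 of the 51 with clusters in both (52.9%, beside 39.1% of all such genes), and overlapping significant peaks in 16 (31.4%, beside 16.6%). By group, these were 13 and 7 of the 23 core subunits and regulators, 5 and 2 of the 12 other BTB adaptors, and 9 and 7 of the 16 substrates and partners. The listed genes held many clusters, 1334 in 54 genes in replicate 1 and 893 in 52 genes in replicate 2. Protein-coding genes with a cluster had a median of 12 and 9. The part of cluster number in these shares was not tested. Cul3, the scaffold that Klhl proteins bind, had 9 and 15 significant peaks (replicates 1 and 2), with up to 129 and 93 IP reads in a cluster. Its shared site with the largest smaller log2(fold change) of the replicates lay in the CDS, at chr1:80283676-80283804 in replicate 1 and chr1:80283676-80283762 in replicate 2, with a log2(fold change) of 2.59 and 2.57. Rbx1, the RING subunit, had 1 and 2 significant peaks that did not overlap. Keap1, the adaptor for the oxidative stress factor NRF2, had 6 and 11 clusters and no significant peak. Unlike Klhl10, it had no cluster with a −log10(P) of 2 or more (at most 1.91 and 1.16), and its deepest clusters held 11 and 6 IP reads.

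The 5 listed genes with the highest smaller log2(fold change) at a shared site included partners of Klhl proteins. Depdc5, a substrate of Klhl22, had values of 4.67 and 3.66 from 15 and 7 IP reads. Cops7a, a subunit of the COP9 signalosome, which removes NEDD8 from cullins, had 3.36 and 3.67 from 85 and 39 IP reads. Aurkb, the kinase directed by Klhl9, Klhl13 and Klhl21, had 4.35 and 3.17 from 12 and 10. Wnk1, a substrate of Klhl2 and Klhl3, had 3.15 and 3.55 at a CDS site, and its 33 and 35 significant peaks were the most of the list. Dcun1d4, a cullin neddylation factor, had 2.98 and 4.14 from 28 and 44. Apart from Wnk1, these sites lay in 3′UTRs. Among the Klhl genes themselves, the highest smaller log2(fold change) was the 3.26 of Klhl20.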

How the data were processed

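IP and SMInput libraries of 2 replicates were compared within each deposited table. Per the submitters' notes and methods, the authors trimmed reads with cutadapt, removed ribosomal RNA reads with Bowtie2, aligned the rest to mm10 with STAR, collapsed PCR duplicates by molecular identifiers and called clusters with Clipper. In the deposited tables, −log10(P) was computed by the authors from IP and SMInput reads and runs from 0 to a ceiling of 400. Its values were reproduced with a chi-square test with Yates' correction, or Fisher's exact test where a number was below 5. The log2 values are the authors' fold change of IP over SMInput, each scaled to its library. These per-cluster values are the deposited measurements and were used as such.

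Whole reads were recovered as the numbers that return both values, with 1 solution for 98.8% of clusters between these limits in replicate 1 and 99.1% in replicate 2. The procedure was tested on simulated clusters whose P values came from the same rule, so that test did not check the rule itself. No cluster ran past a chromosome end of GRCm38. Regions came from basic GENCODE M21 transcripts, with 3′UTR before CDS, 5′UTR and intron. Transcript positions refer to the transcript with the longest CDS. Adjusted P values used the Benjamini-Hochberg method over all clusters of a table. Python 3.11.15, pandas 2.3.3, SciPy 1.17.1 and pysam 0.24.0 were used.

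Members and lists were chosen with earlier results of these data known, so no test over the members was made. Described in full were Klhl10, genes with overlapping significant peaks, and the gene with the largest and with the most significant peaks of each replicate, and of the CUL3 list Cul3, Rbx1, Keap1 and the 5 strongest genes with a shared site. Alternatives covered thresholds, multiple testing, added reads, read minimum, gene assignment, overlap, region order, joined peaks and each replicate alone.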

Additional observations from a re-analysis of the deposited data

How the results depend on the processing

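With both thresholds at 3, 4 of 437 Klhl clusters passed in replicate 1, beside 1.18% of the clusters in protein-coding genes. In replicate 2, 3 of 267 passed, beside 2.4%. Of these peaks 0 overlapped, and 0 Klhl genes and 9 CUL3 ligase genes passed in both replicates. For the gene counts, overlaps and 3′UTR shares in this section, no value over all protein-coding genes is given. They are thus not read as a difference between the lists or from other genes. With an adjusted P under 0.05, 9 of 437 Klhl clusters passed in replicate 1, beside 3.24%, and 31 of 267 in replicate 2, beside 10.4%. Then 3 peaks of replicate 1 overlapped and 4 genes passed in both replicates. The 3′UTR share was 77.8% in replicate 1 and 67.7% in replicate 2. The shared sites of Klhl7, Klhl12 and Klhl21 were kept there, and those of Klhl9, Klhl11 and Klhl20 were lost. With at least 10 IP reads, 15 of 437 Klhl clusters passed in replicate 1, beside 3.5%, and 10 of 267 in replicate 2, beside 5.07%. Then 5 genes in both replicates were left, and the shared sites of Klhl20 and Klhl21 were lost. The 3′UTR share was 66.7% in replicate 1 and 90% in replicate 2. With the centre in an exon, 25 peaks of replicate 2 were left. Beyond fewer clusters passing by construction, the cause was not tested. Other settings moved none of these family-wide values by over 1.5 times. Among them, overlapping Klhl peaks of replicate 1 numbered 4 with genes assigned by the nearest transcription start site. They numbered 9 with the fold change threshold lowered to a log2 of 1. With replicate 1 or replicate 2 left out, genes with a significant peak numbered 12 to 13 (Klhl) and 30 to 40 (CUL3 ligase). Of 25 counts per gene and replicate, 24 fell with both thresholds at 3 and 19 with at least 10 IP reads. With 1 read added to both libraries 2 fell, 8 genes passed in both replicates and the shared site of Klhl11 was lost, and with the fold change threshold lowered to a log2 of 1, 5 rose. These 25 leave out genes without a peak at first, such as Klhl10, which went from 0 to 2 peaks in replicate 1 and from 0 to 3 in replicate 2. No paired analysis was possible because the counts and shares come from no test between samples, and the listed values they count already compare IP with SMInput within each replicate.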
